A study of Mus musculus with 16 samples.

Results

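The genes described here encode the laminins, nidogens and heparan sulfate proteoglycans of basement membranes in the mouse intervertebral disc. The members are 10 genes taken by symbol from a list: the laminin alpha chains Lama2, Lama4 and Lama5, the beta chains Lamb1 and Lamb2, the gamma chain Lamc1, the nidogens Nid1 and Nid2, perlecan (Hspg2) and the collagen XVIII chain (Col18a1). All 10 were found among the 19505 genes with a symbol on the array, each with 1 probe set of the 22206 tested, so that no choice between probe sets had to be made.

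Basement membranes are thin sheets of extracellular matrix that line blood vessels, muscle fibres, nerves and epithelia. A laminin is a trimer of an alpha, a beta and a gamma chain, secreted whole, which binds integrins and dystroglycan on the cell through its alpha chain and assembles into a network on the cell surface. Nidogens link the laminin network to that of collagen IV, and perlecan and collagen XVIII carry heparan sulfate chains that bind growth factors. In cartilage and disc, where most cells lie in an interstitial matrix, perlecan, laminin and nidogen are also found in the thin matrix around single cells.

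RNA was measured on 16 arrays, 1 for the nucleus pulposus (NP, the gel-like core of the disc) and 1 for the annulus fibrosus (AF, the fibrous ring) of 8 female mice, with lumbar and tail discs of an animal pooled. Control animals (CTR) carried Sox9fl/fl, a Sox9 gene flanked by sites for the Cre recombinase. Conditional knockout animals (cKO) carried Sox9fl/fl together with AcanCreERT2, a Cre that tamoxifen activates in cells expressing aggrecan, so that both genotypes shared the floxed allele. The animals were 3 to 4 months old, and tissue was taken 5 days after the first of the tamoxifen injections, which the labels describe for cKO animals only. Each of the 4 groups (NP CTR, NP cKO, AF CTR, AF cKO) held 4 animals, and the deletion, the Cre and the injection cannot be told apart. SOX9 is a transcription factor that drives cartilage matrix genes, and the design asks what its loss does to gene expression in each tissue.

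All values are log2 signals as deposited, so that a difference of 1 is a doubling. The signal of 5222 negative control probe sets had a median of 6.14 to 6.59 per array, and a member under that level was at background. Signals of different probe sets are not on a common scale, and levels are compared only within a gene. Sox9 was at 16.27 ± 0.36 (SD, n = 4) in NP CTR and 9.75 ± 0.25 in NP cKO, and at 16.92 ± 0.51 in AF CTR and 12.24 ± 0.65 in AF cKO, lower in every cKO array than in every CTR array of its tissue. The mean signal of 9 measured annulus and tendon markers was 7.92 to 9.81 on NP arrays and 12.38 to 14.18 on AF arrays, and that of 10 NP and notochord markers was 12.68 to 12.94 in NP and 11.57 to 12.75 in AF. AF arrays also carried more signal of other tissues: 19 endothelial markers averaged 5.34 to 5.55 in NP and 6.45 to 7.85 in AF. Neutrophil markers (11 measured) averaged 5.68 to 7.96 in NP, 6.46 to 11.43 in AF CTR and 9.49 to 13.09 in AF cKO. Skeletal muscle markers (17 measured) averaged 6.40 to 7.29 in AF CTR, but 9.89 and 9.22 in AF cKO replicates 2 and 4. In such dissected tissue fewer cells of a type and less RNA per cell cannot be told apart.

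The promoters of the 4 members whose signal passed the test between tissues are shown as the sequence that these genes do or do not share. They are the 250 bases before the transcription start in RefSeq, mouse build GRCm38.p6, 5′ to 3′ on the gene's strand. Lama2 is on the minus strand at chr10:27616943-27617192, Lamb2 on the plus strand at chr9:108479612-108479861, Nid1 on the plus strand at chr13:13437352-13437601 and Hspg2 on the plus strand at chr4:137468553-137468802. Capitals mark matches on either strand to a GC box (GGGCGG) or a CCAAT box (CCAAT), and no 2 matches overlapped.
Lama2: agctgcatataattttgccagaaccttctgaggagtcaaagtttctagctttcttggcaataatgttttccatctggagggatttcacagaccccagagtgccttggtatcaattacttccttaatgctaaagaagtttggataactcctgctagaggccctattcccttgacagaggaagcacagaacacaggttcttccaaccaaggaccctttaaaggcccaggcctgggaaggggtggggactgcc
Lamb2: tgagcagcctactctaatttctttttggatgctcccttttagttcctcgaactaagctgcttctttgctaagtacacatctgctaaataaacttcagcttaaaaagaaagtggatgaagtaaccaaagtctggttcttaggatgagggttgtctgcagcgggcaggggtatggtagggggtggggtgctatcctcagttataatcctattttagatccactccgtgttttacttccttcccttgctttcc
Nid1: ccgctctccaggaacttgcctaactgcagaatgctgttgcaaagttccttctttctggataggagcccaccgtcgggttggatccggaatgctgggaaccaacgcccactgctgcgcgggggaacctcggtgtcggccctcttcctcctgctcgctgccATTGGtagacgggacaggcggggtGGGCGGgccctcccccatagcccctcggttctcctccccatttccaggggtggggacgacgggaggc
Hspg2: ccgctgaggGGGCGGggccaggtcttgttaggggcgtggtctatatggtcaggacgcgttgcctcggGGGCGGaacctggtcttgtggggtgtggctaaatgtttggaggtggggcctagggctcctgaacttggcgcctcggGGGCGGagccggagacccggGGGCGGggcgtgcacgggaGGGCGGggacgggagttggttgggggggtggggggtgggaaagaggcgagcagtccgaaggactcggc
The windows of Lama2 and Lamb2 held neither motif, with 47.2% and 43.6% G or C, against a median of 52.4% over 32851 promoters. Nid1 had 1 GC box and 1 CCAAT box in 64.4% GC, and Hspg2 had 5 GC boxes in 70% GC. Of all 32851 promoters of that length, 32.7% held a GC box and 33.8% a CCAAT box. The core motifs ACAATG and ACAAAG that SOX proteins can bind were in 10.7% and 16.5% of promoters and, on either strand, in none of the 8 windows found for 7 members. The 4 genes that differed between tissues thus had no motif of these in common.

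More members passed between tissues than between genotypes, as did more probe sets of the whole array. In controls 4 of 10 members were lower in NP than in AF by limma's test at a Benjamini-Hochberg adjusted p under 0.05, and the same 4 were lower in NP of cKO animals: Lama2, Lamb2, Nid1 and Hspg2. No member passed as higher in NP in either genotype. Of all 22206 probe sets 20.1% passed in CTR, 10.1% as lower in NP, and 25.9% passed in cKO, 12.6% as lower. The median difference of the 10 members, NP minus AF, was -0.56 in CTR and -0.69 in cKO, against 0.04 and 0.07 over all probe sets. In CTR 2211 probe sets were higher in NP and 2251 lower, and centring each array on its median raised all NP minus AF differences in CTR by 0.13 at the median and gave 3293 higher and 1769 lower. Under that centring Lama2, Lamb2 and Hspg2 still passed in both genotypes, and Nid1 in cKO but not in CTR.

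**Figure D1:**
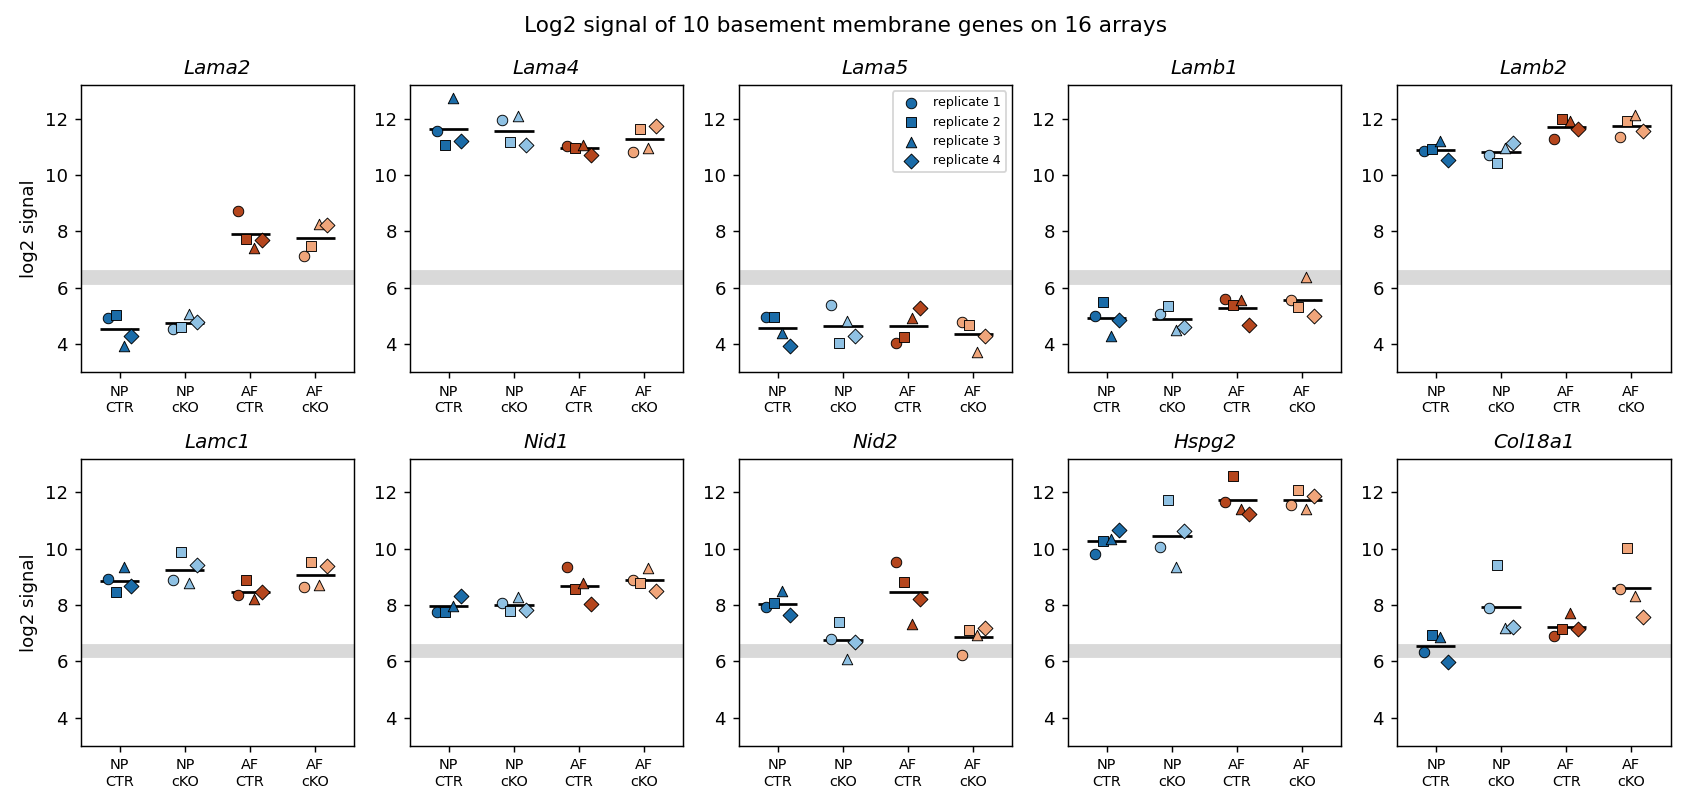
Log2 signal of the 10 members on 16 arrays, by tissue and genotype, with 1 point per array, marker shape for the replicate number and a black line for the mean of 4 arrays. The grey band is the range of the negative control medians over arrays, 6.14 to 6.59: Lama5 and Lamb1 lie at or under it everywhere, and Lama2 lies under it in NP and above it in AF.

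Lama2 encodes the alpha chain of the laminins of muscle fibres and peripheral nerve. Its signal in AF CTR was 8.73, 7.72, 7.42 and 7.68 in replicates 1 to 4, and in AF cKO it was 7.12, 7.46, 8.26 and 8.22. The NP arrays had 4.93, 5.03, 3.93 and 4.27 in CTR against 4.54, 4.60, 5.05 and 4.77 in cKO. All 8 NP arrays were thus below their own negative control median and all 8 AF arrays above it. The AF cKO arrays with high skeletal muscle markers, replicates 2 and 4, were within the range of the other 2. The part of muscle in the AF signal of Lama2 was not tested. The measured difference, NP minus AF, was -3.35 ± 0.32 (SE; adjusted p = 7.1e-07, limma) in CTR and -3.02 ± 0.32 (adjusted p = 2.8e-06) in cKO. Because the NP signal was at background, the fold is a bound: with each NP array set to its negative control median, Lama2 was at least 2.56-fold higher in AF than in NP in CTR and at least 2.42-fold higher in cKO. It passed under all 18 alternatives in CTR and all 19 in cKO, with adjusted p-values up to 1.68e-05 in CTR and 8.97e-05 in cKO.

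Lama4 encodes the alpha chain found in the walls of small vessels and in fat. It was well above background on every array, with 11.55, 11.05, 12.73 and 11.20 in NP CTR, 11.94, 11.18, 12.10 and 11.08 in NP cKO, 11.03, 10.96, 11.07 and 10.72 in AF CTR and 10.83, 11.62, 10.96 and 11.73 in AF cKO. Its mean was higher in NP in both genotypes, but the groups overlapped. The difference, NP minus AF, was 0.69 (95% interval -0.00 to 1.38; adjusted p = 0.153, limma) in CTR and 0.29 (-0.40 to 0.98; adjusted p = 0.542) in cKO. Of the endothelial markers, 17 of 19 were at background in NP CTR and 7 of 19 in AF CTR. The part of vessels in the Lama4 signal was not tested. Lama5, the alpha chain of many epithelial and vessel membranes, stayed between 3.71 and 5.37 on all 16 arrays, which is at background.

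Lamb1 and Lamb2 encode the beta chains, of which Lamb2 is the one of the neuromuscular junction and the kidney filter. Lamb1 lay between 4.28 and 6.39, with 15 of 16 arrays below their own negative control median, and gave no usable level. Lamb2 was 10.87, 10.92, 11.21 and 10.53 in NP CTR and 10.70, 10.42, 10.95 and 11.12 in NP cKO. The AF CTR arrays had 11.27, 12.00, 11.92 and 11.63, and the AF cKO arrays 11.35, 11.92, 12.14 and 11.55. Every AF array was above every NP array of the same genotype, although NP CTR replicate 3 and AF CTR replicate 1 were close. Lamb2 was lower in NP, at -0.82 ± 0.23 (SE; 1.77-fold; adjusted p = 0.0171, limma) in CTR and at -0.94 ± 0.23 (1.92-fold; adjusted p = 0.00643) in cKO. The call in CTR was lost without NP CTR replicate 4 (adjusted p = 0.0613) or AF CTR replicate 2 (0.0543). Lamc1, the gamma chain of most laminins, was above background throughout. It was 8.92, 8.48, 9.34 and 8.69 in NP CTR and 8.35, 8.88, 8.21 and 8.45 in AF CTR, and these groups overlapped. Its difference, NP minus AF, was 0.38 (95% interval -0.20 to 0.97) in CTR and 0.18 (-0.41 to 0.76) in cKO, and neither passed.

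Nid1 and Nid2 encode the paralogous nidogens. Nid1 was 7.77, 7.76, 7.95 and 8.32 in NP CTR and 8.06, 7.79, 8.28 and 7.82 in NP cKO, and it was 9.36, 8.56, 8.77 and 8.04 in AF CTR and 8.90, 8.78, 9.32 and 8.51 in AF cKO. The tissues did not overlap in cKO, while in CTR the lowest AF array lay below the highest NP array. Nid1 was lower in NP, at -0.89 ± 0.25 (SE; 1.85-fold; adjusted p = 0.0159, limma) in cKO and at -0.73 ± 0.25 (1.66-fold; adjusted p = 0.0478) in CTR. The call in CTR was the weakest of the 8: it held in 6 of 18 alternatives, and was lost without any 1 of replicates 1, 2 and 3 of NP CTR or of AF CTR (adjusted p = 0.0652 to 0.172). In cKO it was lost without AF cKO replicate 3 (0.0619). NP and AF came from the same animals, and the adjusted p of Nid1 in CTR was 0.0666 with the animal as a fixed block and 0.0431 with it as a random block. Nid2 did not pass between tissues, with NP minus AF at -0.43 (95% interval -1.21 to 0.35) in CTR and -0.11 (-0.89 to 0.67) in cKO.

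The heparan sulfate proteoglycan perlecan, encoded by Hspg2, was 9.83, 10.29, 10.36 and 10.65 in NP CTR and 11.67, 12.59, 11.40 and 11.24 in AF CTR. In cKO it was 10.06, 11.74, 9.34 and 10.64 in NP and 11.56, 12.09, 11.43 and 11.89 in AF. The tissues were apart in controls, and in cKO only NP replicate 2 reached into the AF range. Hspg2 was lower in NP, at -1.44 ± 0.39 (SE; 2.71-fold; adjusted p = 0.0127, limma) in CTR and at -1.30 ± 0.39 (2.46-fold; adjusted p = 0.0195) in cKO. The cKO difference no longer passed when replicate 1 of NP cKO (adjusted p = 0.061), replicate 3 of NP cKO (0.0764) or replicate 2 of AF cKO (0.0589) was left out. It also missed without both AF cKO replicates 2 and 4 (-1.05; adjusted p = 0.15), the arrays with the high skeletal muscle markers. These were also the 2 highest AF cKO values of Hspg2, and leaving them out makes the difference smaller by construction. The part of muscle in the Hspg2 difference was not tested. Col18a1, whose C-terminal fragment is endostatin, was lower in NP, at -0.69 ± 0.47 in both genotypes, which did not pass (adjusted p = 0.328 in CTR and 0.295 in cKO). It was lower in NP in 4 of 4 animals of each genotype. With the animal as a fixed block the same difference had an adjusted p of 0.0409 in CTR and 0.0343 in cKO, but with the animal as a random block it did not pass (0.306 and 0.275). It also passed in cKO without NP cKO replicate 2 (-1.19; adjusted p = 0.0457), the NP array with the highest Col18a1 signal.

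In the exact two-sided permutation test of 4 arrays against 4, which ignores that NP and AF share animals and whose smallest possible p is 0.0286, that value was reached between tissues by Lama2 and Lamb2 in both genotypes, by Hspg2 in CTR and by Nid1 in cKO. These are the cases in which the 2 tissues did not overlap, 3 of 10 members in each genotype. Over all probe sets 11.2% were lower in NP without overlap in CTR and 12.5% in cKO. An exact permutation test within 4 animals cannot give a p below 0.125, so it can pass no member. Within animals, Lama2, Lamb2, Hspg2 and Col18a1 were lower in NP in 4 of 4 animals of each genotype, and Nid1 in 3 of 4 in CTR and 4 of 4 in cKO. Lama4 was higher in NP in 4 of 4 control animals and 2 of 4 cKO animals, and Lamc1 in 3 of 4 and 4 of 4.

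Between genotypes no member passed in either tissue. In NP 0 of 10 members had an adjusted p under 0.05 by limma, against 0.122% of all probe sets, and 2 had an unadjusted p under 0.05, Nid2 and Col18a1, against 4.58% of all probe sets. In AF the count was also 0 of 10, against 0.0991% of all probe sets, and 3 had an unadjusted p under 0.05, Nid2, Col18a1 and Lamc1, against 10.6%. The change in AF minus the change in NP passed for no member and for 0% of all probe sets, and no member had an unadjusted p under 0.05 for it, against 6.74%. The differences, cKO minus CTR, of the 7 members other than Nid2, Col18a1 and Lamc1 were between -0.09 and 0.20 in NP and between -0.26 and 0.34 in AF. For Hspg2 the 95% interval was -0.65 to 0.97 in NP and -0.79 to 0.83 in AF, and for Lamb2 it was -0.57 to 0.40 and -0.45 to 0.52. At the thresholds that the labels name, an unadjusted p under 0.05 with a fold of at least 1.75, Nid2 and Col18a1 passed in both tissues, as did 1.18% of all probe sets in NP and 3.49% in AF.

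**Figure D2:**
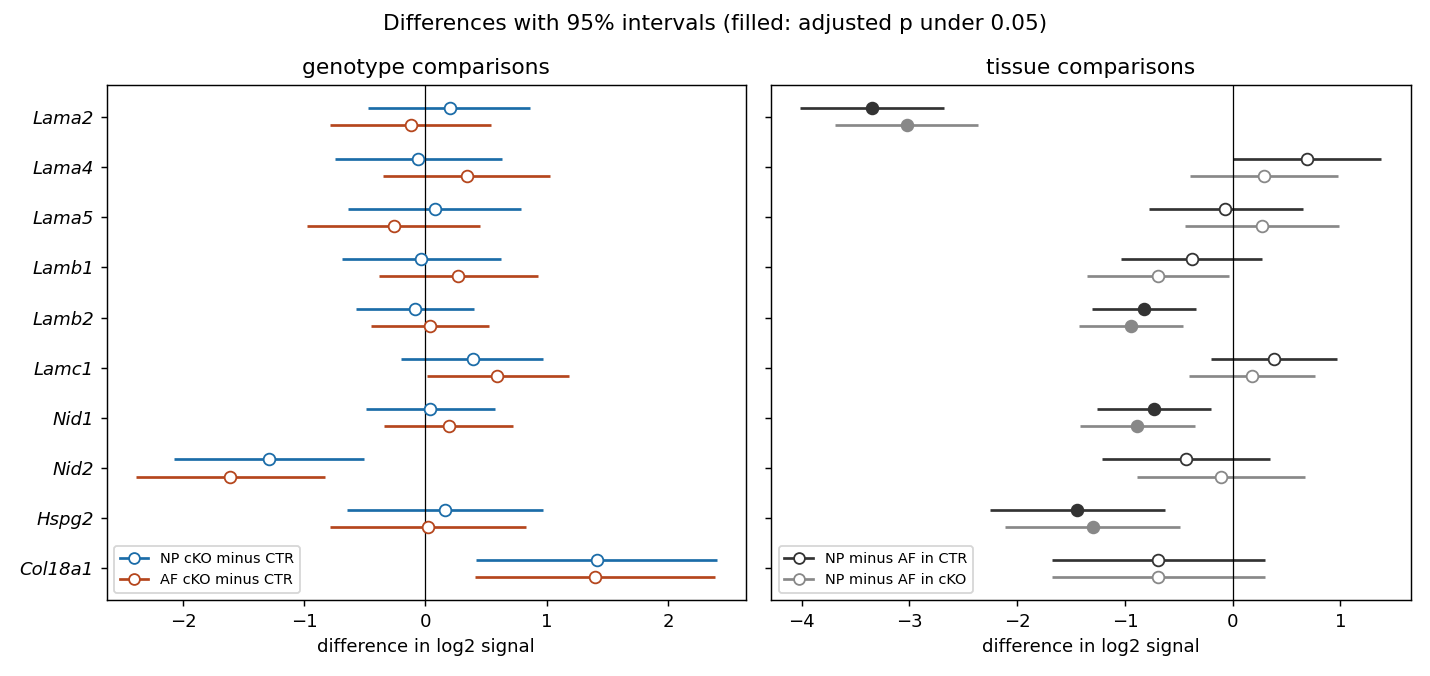
Differences in log2 signal of the 10 members from limma, with 95% intervals, for cKO minus CTR in each tissue (left) and NP minus AF in each genotype (right), each from 4 arrays against 4. Filled points have an adjusted p under 0.05: Lama2, Lamb2, Nid1 and Hspg2 between tissues, and none between genotypes, where the intervals of Nid2 and Col18a1 lie to one side of 0 in both tissues.

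Nid2 had the lowest p-value of the members in both genotype comparisons, and a lower mean in cKO. The NP arrays had 7.93, 8.07, 8.49 and 7.65 in CTR against 6.79, 7.40, 6.10 and 6.70 in cKO. The AF arrays had 9.52, 8.82, 7.34 and 8.20 in CTR against 6.21, 7.10, 6.95 and 7.17 in cKO. Every cKO array was below every CTR array of its tissue, which held in both tissues for 41 probe sets (0.185%) in the lower direction. Without overlap in either direction there were 2.93% of probe sets in NP and 4.33% in AF. The difference was -1.29 ± 0.37 (SE; 2.44-fold; unadjusted p = 0.00272, adjusted p = 0.445, limma) in NP and -1.61 ± 0.37 (3.06-fold; unadjusted p = 3.9e-04, adjusted p = 0.133) in AF. One cKO array of each tissue was under its negative control median, and with those set to that median CTR was at least 2.3-fold above cKO in NP and at least 2.98-fold in AF. The exact permutation p was 0.0286 in each tissue. Without AF CTR replicate 3, the lowest AF control, the difference in AF was -1.99 with an adjusted p of 0.0112. Leaving out the lowest control makes the difference larger by construction. It was the only 1 of 19 alternative fits in which Nid2 passed in AF.

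The change of Nid2 in AF minus that in NP was -0.32 (95% interval -1.43 to 0.78), and the cKO minus CTR difference was therefore also taken over both tissues, a comparison chosen after the values of Nid2 and Col18a1 had been seen. With NP and AF of each animal averaged, Nid2 was 8.72, 8.44, 7.92 and 7.92 in the 4 control animals and 6.50, 7.25, 6.52 and 6.93 in the 4 cKO animals. The groups did not overlap, and the difference was -1.45 ± 0.23 (SE; adjusted p = 0.0220, limma over 8 animals), where 45 probe sets (0.203%) passed. In a fit to the 16 arrays its adjusted p was 0.0153, with 69 probe sets (0.311%) passing. Leaving out each animal in turn kept the difference between -1.60 and -1.29, but the adjusted p over animals was 0.0974 without control animal 2, 0.0582 without cKO animal 1 and 0.0751 without cKO animal 3.

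Marker lists moved with Nid2 among the AF CTR arrays. The mean signal of 13 cartilage markers was 13.90, 12.81, 10.99 and 12.02 in AF CTR replicates 1 to 4, the same order as Nid2. The neutrophil markers (11.43, 7.95, 6.46 and 7.24) and the 6 osteoclast markers (9.07, 7.61, 5.75 and 7.40) had that order there too. So did the 8 Schwann cell markers (7.54, 6.32, 5.96 and 6.18), of which 5 had an AF CTR mean at background. In AF cKO the cartilage mean was 10.77, 10.40, 11.19 and 10.15, an order not shared with Nid2, whose highest value was on the array with the lowest cartilage mean. Between genotypes in AF the median difference, cKO minus CTR, was 3.17 for the neutrophil list and 0.23 for the osteoclast list. It was -1.58 for the cartilage list and -0.36 for the Schwann cell list. The AF CTR replicate with the lowest Nid2 also had the lowest cartilage, neutrophil, osteoclast and Schwann cell means of AF CTR. Its cartilage mean was within the range of the AF cKO arrays. In NP the cartilage list was 8.13 to 8.41 in CTR and 7.56 to 8.53 in cKO, and the 2 groups overlapped. Over the 16 arrays, as deviations from the 4 group means, Nid2 correlated with the cartilage list at r = 0.63. The r was similar for the neutrophil (0.57) and Schwann cell (0.56) lists and 0.46 for the osteoclast list. It was slightly negative for the NP and notochord (-0.11) and the annulus and tendon (-0.12) lists. SOX9 itself drives cartilage matrix genes, so the cartilage list cannot serve between genotypes as a measure of cartilage cells. The part of cartilage, marrow or other cells in the AF difference was not tested.

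Col18a1 had a higher mean in cKO in both tissues. Its signal in NP was 6.34, 6.94, 6.87 and 5.98 in CTR against 7.91, 9.44, 7.18 and 7.21 in cKO, and the AF arrays had 6.89, 7.14, 7.71 and 7.14 in CTR against 8.56, 10.04, 8.31 and 7.58 in cKO. The groups did not overlap in NP, and in AF cKO replicate 4 was below CTR replicate 3. Animal 2 of the cKO group was the highest in both tissues. The difference was 1.41 ± 0.47 (SE; 2.65-fold; unadjusted p = 0.0079, adjusted p = 0.697, limma) in NP and 1.40 ± 0.47 (2.64-fold; unadjusted p = 0.00808, adjusted p = 0.31) in AF. In NP CTR 2 arrays were under their negative control median, and with those set to it cKO was at least 2.3-fold above CTR. With NP and AF of each animal averaged, Col18a1 was 6.61, 7.04, 7.29 and 6.56 in control and 8.24, 9.74, 7.74 and 7.40 in cKO animals, with no overlap, and the difference of 1.40 had an adjusted p of 0.312 over 8 animals and 0.0992 over 16 arrays. It was 0.92 without cKO animal 2, with an adjusted p of 0.311 over 7 animals, and without cKO animal 4 it was 1.70, with an adjusted p of 0.111 over animals. The fit to arrays, which counts NP and AF of an animal as separate replicates, passed there (0.0266).

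The 13 pericyte and smooth muscle markers averaged 7.84 to 8.08 in NP CTR and 8.09 to 8.66 in NP cKO, and 8.20 to 8.86 in AF CTR and 8.32 to 9.27 in AF cKO. Its genes did not move together: 8 of 13 were above 0 and 5 below in NP, cKO minus CTR, with a median of 0.17 and 1 passing as lower, and 7 were above and 6 below in AF, with a median of 0.02. Animal 2 of the cKO group had the highest list mean of its group in both tissues, as for Col18a1. In deviations from the group means Col18a1 correlated with this list at r = 0.67, and the gene with the pattern most like it was one of the list, Acta2, smooth muscle actin, at r = 0.91. The part of contractile cells in the Col18a1 difference was not tested.

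Lamc1 followed with 8.89, 9.90, 8.77 and 9.42 in NP cKO and 8.64, 9.53, 8.70 and 9.40 in AF cKO, against the NP CTR and AF CTR values above. The cKO and CTR groups overlapped in both tissues. Its difference was 0.39 ± 0.28 (SE; unadjusted p = 0.181, limma) in NP and 0.59 ± 0.28 (unadjusted p = 0.0467, adjusted p = 0.464) in AF. In both tissues cKO animals 2 and 4 were the higher pair, and in AF these were the arrays with high skeletal muscle markers. Those markers were at 5.75 to 5.97 on all NP cKO arrays. The part of muscle in the Lamc1 difference was not tested.

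**Figure D3:**
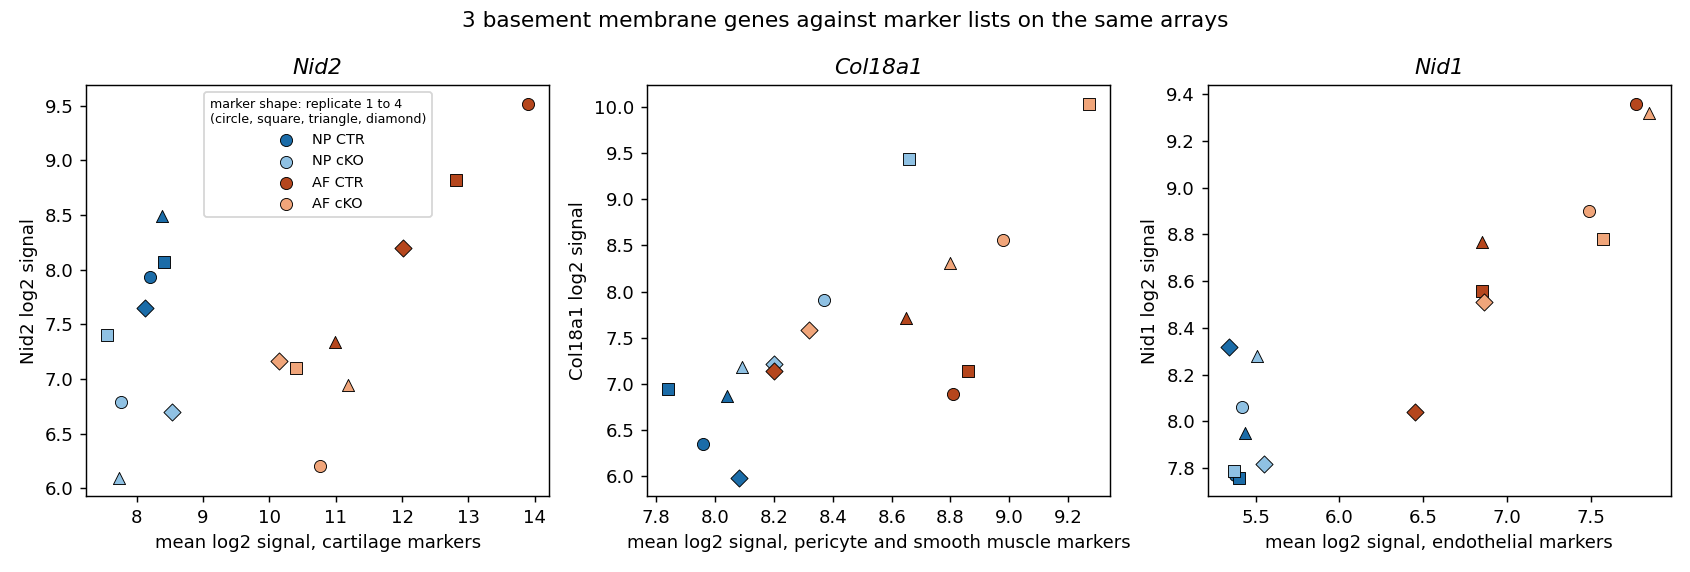
Log2 signal of Nid2, Col18a1 and Nid1 on each of 16 arrays against the mean log2 signal of the cartilage, the pericyte and smooth muscle, and the endothelial marker list on the same array. Colour is the group and shape the replicate: AF CTR falls in the same order for Nid2 and the cartilage list, cKO replicate 2 is high for Col18a1 and contractile markers in both tissues, and the AF arrays with the highest endothelial means have the highest Nid1.

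The variation between animals of 1 group was compared between members, as a description with no test. As deviations from the 4 group means over 16 arrays, the most alike pair of the 10 members was Lamc1 and Hspg2 at r = 0.74. Lamc1 and Nid2 followed at r = 0.58. The least alike pair was Lama5 and Hspg2 at r = -0.54, with Lama5 at background on all 16 arrays. These pairs are the extremes picked from all pairs of members. Nid1 correlated with the endothelial list at r = 0.82. It also did so with the adipocyte (0.67), macrophage (0.63), Schwann cell (0.59), osteoclast (0.55) and neutrophil (0.52) lists. With the NP and notochord list (-0.56) and the skeletal muscle list (-0.34) the sign of r for Nid1 was negative. The 2 highest arrays of Nid1, AF CTR replicate 1 at 9.36 and AF cKO replicate 3 at 9.32, also had the highest endothelial means, 7.77 and 7.85. They had the highest macrophage (8.05 and 8.26) and osteoclast (9.07 and 10.32) means as well. Without those 2 arrays the difference of Nid1, NP minus AF in CTR, was -0.51 with an adjusted p of 0.153, against -0.73 with them, and in cKO it was -0.74 with an adjusted p of 0.0339, against -0.89. Leaving out the highest Nid1 arrays of AF makes the difference smaller by construction. The part of vessels or of other cell types in the tissue difference was not tested.

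By the same measure, the members were compared over 16 arrays with the 19505 genes that have a symbol, less those with predicted or clone names. The gene most like each laminin member was Eci3 for Lama2 (r = 0.89), Slc25a4 for Lama4 (0.89), Mfsd4b1 for Lama5 (0.95), Cdc6 for Lamb1 (0.88), Cpq for Lamb2 (0.90) and Elavl1 for Lamc1 (0.90). It was Cdk2 for Nid1 (0.88), Fancc for Nid2 (0.92) and Dcun1d5 for Hspg2 (0.90). The mean of the 10 members was most like Smarcb1 (0.89), Nf2 (0.88), Nono (0.86), Zfp512 (0.86) and Cenpf (0.86). The highest of so many correlations is high also for Lama5, whose signal is at background.

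Of 78 further genes of basement membranes in 7 lists, 67 were measured, and none passed between genotypes in NP, in AF or in the difference of the 2 changes. With limma's unadjusted p under 0.05 there was 1 of the 67 in NP, in the list of other basement membrane proteins, against 4.58% of all probe sets. In AF there were 2 of 6 collagen IV chains, 2 of 18 other basement membrane proteins, and 1 each of the receptors, the heparan sulfate genes and the proteases, against 10.6% of all probe sets. For the difference of the 2 changes there was 1, a heparan sulfate gene, against 6.74%. In AF the count of collagen IV chains, 2 of 6, is above the 10.6% share but rests on 2 genes. The other lists with a count in AF were near that share. The tissue comparisons are given list by list, with the number passing in CTR and then in cKO. Each count is to be read against the share of all probe sets. That share was 20.1% in CTR, with 10.1% as lower in NP, and 25.9% in cKO, with 12.6% as lower.

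Among 4 other laminin chains, 1 was higher in NP in CTR and 2 in cKO, and none was lower. Lamb3, the beta chain of the laminin that anchors epidermis, was 12.88, 12.17, 13.25 and 12.40 in NP CTR and 9.65, 10.60, 10.93 and 10.72 in AF CTR. It was 12.63 to 12.94 in NP cKO and 10.39 to 11.64 in AF cKO, so NP was above AF on all arrays. The difference was 2.20 ± 0.30 (SE; adjusted p = 4.1e-05, limma) in CTR and 1.80 ± 0.30 (adjusted p = 3.1e-04) in cKO, opposite in direction to Lamb2. Lama3, its usual alpha partner, differed by 0.90 in cKO (adjusted p = 0.0116) from an AF signal under background, which gives at least 1.36-fold. Its NP mean of 6.72 was itself close to the negative control medians.

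Among 6 collagen IV chains, 2 were lower in NP in CTR and 1 in cKO, and none was higher. Col4a2, one of the chains of the collagen IV found in nearly all basement membranes, was 4.88 to 5.81 in NP CTR and 7.54 to 8.26 in AF CTR. NP was under background, so AF was at least 2.89-fold higher in CTR and at least 3.09-fold in cKO (adjusted p = 8.5e-06 and 2.2e-05, limma). Col4a4, a chain best known from the kidney filter, was lower at -0.80 in CTR (adjusted p = 0.0117) and at -0.26 in cKO, which did not pass.

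Among 18 other basement membrane proteins, 1 was higher and 5 lower in NP in CTR, and 1 was higher and 7 lower in cKO. Nephronectin (Npnt), a ligand of an integrin in kidney and other epithelia, was the one higher in both, by 1.72 ± 0.29 (SE; adjusted p = 3.8e-04, limma) in CTR and 1.16 ± 0.29 (adjusted p = 0.00755) in cKO. The collagen-binding protein Sparc was lower at -2.19 and -1.95, with AF means of 19.89 and 19.90 at the top of the scale, where the highest value on any array is 19.93, so that these sizes are minimums. Collagen XV (Col15a1), the closest relative of Col18a1, was lower at -1.96 in CTR and -2.26 in cKO (adjusted p = 4.0e-04 and 1.2e-04), where Col18a1 itself was at -0.69 in both. Fibulin 1 (Fbln1) and Smoc2 were at background on the NP CTR arrays and at least 21.5-fold and 3.22-fold higher in AF in CTR. Vwa1 passed as lower, but its NP signal was under background and its AF signal close to it, which leaves no fold.

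Among 10 receptors, 2 were higher and 1 lower in NP in CTR, and 1 was higher and 2 lower in cKO. Bcam, a surface receptor for laminins with the alpha chain of Lama5, was higher in NP by 1.84 ± 0.34 (SE; adjusted p = 8.1e-04, limma) in CTR and by 0.94 ± 0.34 in cKO, where it was at the threshold and did not pass (adjusted p = 0.050). The tetraspanin Cd151, a partner of laminin-binding integrins, was higher by 0.94 in CTR (adjusted p = 0.0162) and by 0.51 in cKO (0.159). Integrin alpha 7 (Itga7), a laminin receptor of muscle, was higher by 0.78 in cKO (0.0497) and by 0.72 in CTR (0.083). Integrin alpha 3 (Itga3) was lower (0.0396 and 0.0411), with some NP arrays under background and AF at least 1.55-fold higher in CTR and 1.52-fold in cKO. Itgb4 passed as lower in cKO, but 4 NP arrays and 2 AF arrays of cKO were under background, which leaves no fold. Dystroglycan (Dag1) differed by 0.10 and 0.38, and did not pass. Of 6 genes that put the laminin-binding sugar on dystroglycan none passed, the nearest being Pomk at -0.80 in CTR (adjusted p = 0.0506) and Pomgnt2 at 0.63 in cKO (0.0556).

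Among 12 heparan sulfate genes, 2 were higher and 3 lower in NP in CTR, and 3 were higher and 4 lower in cKO. The 2 sulfatases that trim heparan sulfate outside the cell went in opposite directions. Sulf2 was higher in NP by 1.20 ± 0.31 (SE; adjusted p = 0.00943, limma) in CTR and 1.01 ± 0.31 (0.0210) in cKO, and Sulf1 was at background on 4 NP CTR arrays and at least 23.6-fold higher in AF CTR. The chain-building enzymes also split, with Ext1 higher in NP by 1.05 and 0.88 (adjusted p = 0.0213 and 0.0428) and Extl3 lower at -2.83 and -2.37 (2.5e-07 and 2.6e-06). Hs2st1 passed as lower in cKO (0.00449) with 3 of 4 NP arrays under background, so that AF was at least 1.52-fold higher, and heparanase (Hpse) passed as lower although it was under background in both tissues.

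Among 11 proteases, none was higher in NP, 7 were lower in CTR and 6 in cKO, against 10.1% and 12.6% of all probe sets as lower. The median difference of the list, NP minus AF, was -2.17 in CTR and -2.83 in cKO. Mmp2, a gelatinase that cleaves collagen IV, and Mmp3 were under background in NP CTR and at least 8.62-fold and 29-fold higher in AF CTR. Tissue plasminogen activator (Plat) was at least 3.19-fold higher in AF CTR and at least 3.75-fold in AF cKO. Bmp1, which processes laminin chains and perlecan, was lower at -3.22 in CTR and -2.83 in cKO, with at least 8.87-fold in CTR, and Mmp14 was at -2.17 and -3.11 (adjusted p = 0.0112 and 7.5e-04, limma). Mmp9, a gelatinase stored in neutrophils, was at least 9.89-fold higher in AF CTR, where its SD over 4 arrays was 3.25, and neutrophil markers spread there from 6.46 to 11.43. The part of marrow cells in the protease differences was not tested.

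**Figure D4:**
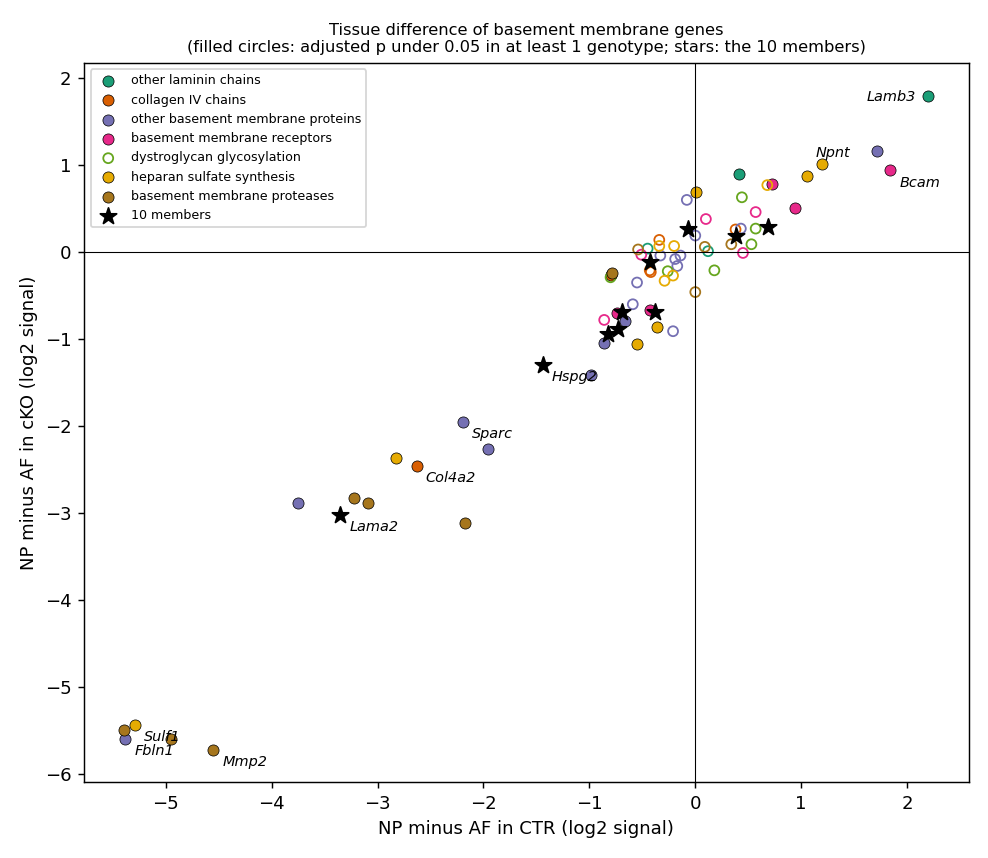
Difference in log2 signal, NP minus AF, in CTR (horizontal) and cKO (vertical) for the 67 measured basement membrane genes by list and for the 10 members (stars). Filled circles passed in at least 1 genotype: Lamb3, Bcam and Npnt lie above 0 in both, and Fbln1, Sulf1, Mmp2, Col4a2 and Lama2 lie far below. NP CTR was at background for these 5, so the plotted size is not a reliable fold and the text gives the smaller lower bounds.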

How the data were processed

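Labelled by GeneChip WT Plus chemistry, RNA of 16 mouse disc samples was hybridised to 1-colour Affymetrix arrays. The authors' deposited log2 signals came from sst-RMA, per the labels, and Transcriptome Analysis Console, per the submitters' processing notes, for which a version was not given in the sources used here. They were used as deposited. Of 28846 probe sets 6640 controls were left out and 22206 kept. A model of 4 group means was fitted in limma 3.58.1 (R 4.3.3), with Benjamini-Hochberg adjustment over all and a threshold of 0.05. The fit was tested on simulated data. Exact permutation tests used scipy 1.17.1. The number of arrays, 4 a group, limits the precision. The members and lists were chosen with earlier results of these data known. All members are named, with pathway genes that passed in at least 1 comparison, at most 6 per list by p, or else the 2 with the lowest p. NP and AF of an animal are paired by the animal in the sample titles. Over all probe sets their deviations from the group means correlated at -0.293 to 0.348, over 0.1 in 3 of 8 animals. Where a group was under its arrays' negative control medians, a bound was computed with those medians in place of lower values. Promoters were read from RefSeq for 7 members, with no entry for Lama4, Lamc1 or Nid2. Listed genes without a match on the array were not analysed here.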

Additional observations from a re-analysis of the deposited data

How the results depend on the processing

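The number of members passing between genotypes was 0 of 10 in both tissues, and became 2 in NP and 2 in AF only at the thresholds of the labels. Leaving out each array in turn gave 0 in NP, 0 to 1 in AF (Nid2, without AF CTR replicate 3) and 0 for the difference between tissues. Between tissues the 4 members of CTR became 2 to 4 with an array left out, the 2 without AF CTR replicate 2, and the 4 of cKO became 3 to 5. With the animal as a fixed block 4 members passed in CTR and 5 in cKO, and with it as a random block 4 and 4. The fixed block put Col18a1 in the place of Nid1 in CTR, added Col18a1 in cKO and changed no other call, and the random block changed none of the calls (Nid1 in CTR 0.0431). With the replicate number as a block, which pairs different animals, 0 members passed between genotypes. Centring arrays, a second quantile normalization, an intensity trend and a fit to the 8 arrays compared each gave 3 in CTR, since Nid1 was lost. The second quantile normalization also gave 3 in cKO. Lamb1 passed between tissues in cKO without AF cKO replicates 2 and 4 (-1.11; adjusted p = 0.0435), with its NP signal under background. Of its 4 AF cKO arrays, 3 were under background too. The 2 arrays left out were the lowest of AF cKO for Lamb1, which makes the difference larger by construction. No further probe set of a member was there to be tried. The filter on dim probe sets left out Lama5 and Lamb1. A signal near the negative controls limits Lama2 in NP, Lama5, Lamb1 and the lowest arrays of Nid2 and Col18a1. Elsewhere the number of animals sets the width of the intervals.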
